A study of Mus musculus with 2 samples.

Results

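Fasting was set against feeding in wild-type (WT) mouse liver, with the WT pool of mice fasted for 24 h compared with the WT pool of mice fed ad lib. All WT mice were of the strain C57B6J, and total liver RNA was pooled within each feeding state before labelling. The pools were read on 2 two-colour Agilent arrays, with WT RNA in the Cy3 channel and, in the Cy5 channel of the same array, pooled liver RNA of CREBH knockout (KO) mice on the C57B6J background in the same feeding state. CREBH, encoded by Creb3l3, is a liver transcription factor made as a membrane protein, and the WT mice described here carry the gene intact. The number, sex and age of the mice in a pool, and the hour at which liver was taken, are not given in the sources used here. The comparison is the Cy3 signal of the fasted array over that of the fed array after normalization between arrays. It covers the genes whose probe was well above background in Cy3 on both arrays. These were 11438 genes of 20280 named genes with a probe, and all values below are on the log2 scale of normalized intensity unless a fold is given.

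Each feeding state was 1 pool on 1 array, so there were no replicates and no test, and array and feeding state cannot be told apart. A gene is called higher or lower where its 2 pools differed by at least 2-fold, which is a rule of size only. The 2 arrays lay on the same slide and were read in the same scan. Of 59305 gene spots, 39.9% on the fed and 45.9% on the fasted array were well above background in Cy3. For 221 probes printed 10 times on each array, the SD of the fasted minus fed difference between spots had a median of 0.08 and a 95th percentile of 0.14. That spread is technical and leaves out what separates mice, pools and labelling reactions. All 10 hepatocyte markers were measured, Alb, Ttr and Hnf4a among them. None was 2-fold apart between the states, and their median difference was -0.03. Over the ways of processing that were tried, this median ran from -0.41 to 0.16, with at most 3 of the markers higher and none lower. Creb3l3 itself was at 14.00 in the fed and 15.03 in the fasted WT pool, 2.04-fold higher.

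As background, a liver without dietary glucose turns from storing to exporting fuel. Low insulin and high glucagon, together with fatty acids from adipose tissue, favour the nuclear receptor PPARα and its partners, whose targets burn fatty acids in mitochondria and peroxisomes and make ketone bodies. The same change in hormones withdraws insulin's drive on SREBP-1c, which in the fed state favours the making of new fatty acids from glucose carbon.

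Of the 11438 genes, the fasted pool had 269 at a signal at least 2-fold higher, a share of 2.35%, and 220 at one at least 2-fold lower, a share of 1.92%. These shares are the background against which the gene lists below are read. The middle of the distribution was narrow, since 95% of genes lay between -0.89 and 0.97 with a median of 0.01. At least 4-fold apart were 30 genes on the higher and 28 on the lower side, and at least 16-fold apart were 4 and 1. The 20 highest genes were, in order, Cyp4a32, Cyp4a14, Cyp4a10, Cyp4a31, Acot1, Mfsd2a, Asic5, Acot3, Vnn1, Acot5, Ehhadh, Retsat, Eif4ebp3, Plin4, Angptl4, Rab30, Cidec, Cyp8b1, Lgals4 and Slc16a5. The 20 lowest included Thrsp, Gsta1, Cyp2c70, Fasn, Srebf1, Tgtp2, Angptl8, Hsd3b5, Mid1ip1, Aqp8, Elovl6, Fabp5, Insig1, Gm10639, Fdps, Car3, Acacb, Aacs and Acaca. The first set holds 4 Cyp4a hydroxylases, 3 thioesterases (Acot) and the droplet genes Plin4 and Cidec, and 8 genes named in the second belong to the fatty acid synthesis list. The split between directions depends on how the arrays are put on 1 scale: 55.0% of called genes were on the higher side here, 48.2% with the scanner software's processed signal, and 93.8% with no normalization between arrays (1078 higher and 71 lower), where the median of all genes moved to 0.46.

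**Figure D1:**
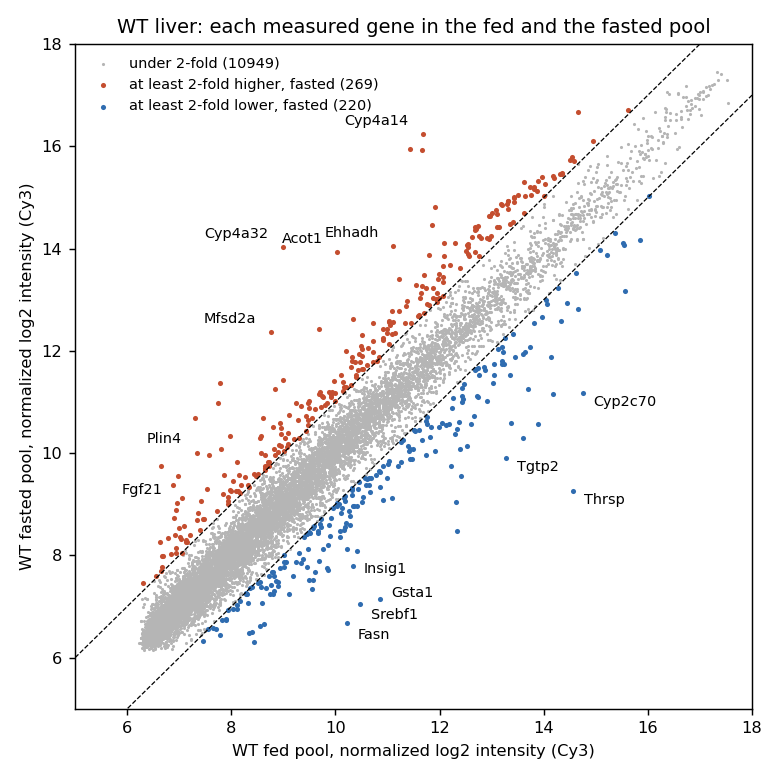
Normalized log2 Cy3 intensity of each of the 11438 measured genes in the fed WT pool (horizontal) and the fasted WT pool (vertical), 1 pool per axis. Dashed lines mark a 2-fold difference, with 269 genes above the band (red), led by the Cyp4a genes, and 220 below it (blue), led by Thrsp.

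A set of the higher genes shared more than their direction. On each array the KO over WT ratio can be read beside the WT fasting difference, and 70 of the 266 higher genes that were also measured in KO lay in a narrow band of that ratio, at 0.4 to 0.8 on the fed and 0.3 to 0.65 on the fasted array. Of all 11287 genes measured in both genotypes 137 lay in the band, and of the 218 lower genes 4 did. The band was drawn after the data were seen, so these counts are a description. The 137 genes had a median WT difference of 1.03, and 105 of them were above 0. The band's higher genes, at least 2-fold by the rule, ranged from 1.01 to 3.90 with quartiles of 1.32 and 1.58. Their median was 1.45, against 1.29 for the higher genes outside the band. The higher genes in the band include some known mostly from other tissues, such as the ephrin receptors Ephb3 and Epha5, the sodium channel Scn8a and the potassium channel Kcna4. Where a band gene on the higher side had another measured probe, that probe was under 0.5 for 13 of 15 genes, against 5 of 33 for the higher genes outside the band. Atxn7 was at 1.78 by its brightest probe and at -0.54 by another, and Wdr89 at 1.82 and -0.05. Without the band 199 higher and 216 lower genes remained. Of the called members of the pathway lists below, Acot1, Acot3 and the lower gene Acaca lay in the band, and Asic5 and Rab30 lay in it among the other genes of the 20 highest. The part of probe sequence in this pattern was not tested.

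**Figure D2:**
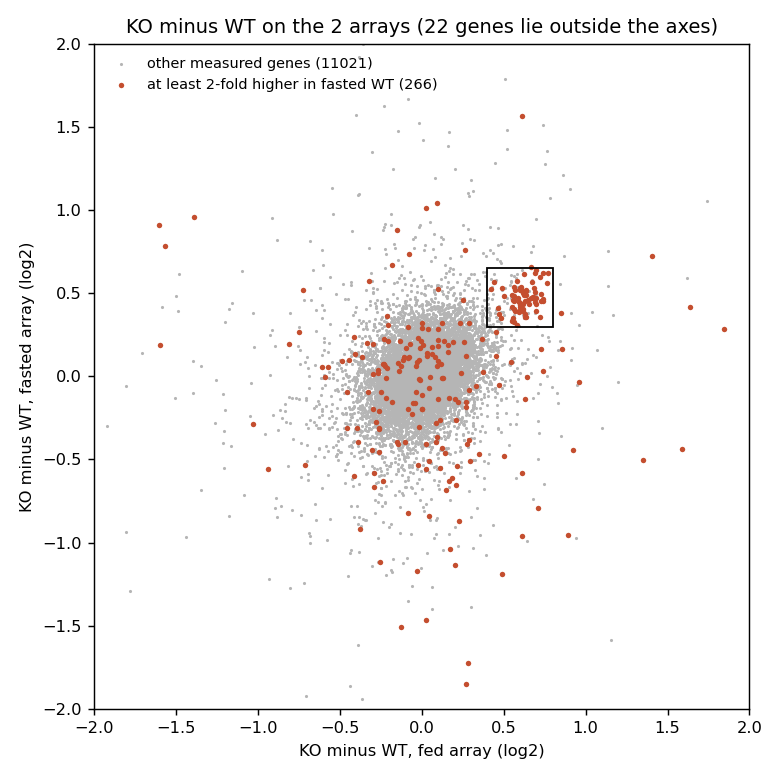
KO minus WT log2 intensity on the fed (horizontal) and the fasted array (vertical) for the 11287 genes measured in both genotypes, 22 of which lie outside the axes. Red points are the 266 genes at least 2-fold higher in the fasted WT pool, and the box is the band, which holds 70 of them as a separate group at the upper right.

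Of 25 measured nuclear receptors and partners, 2 were higher and 2 lower, with a list median of -0.04. Ppara, which senses fatty acids, was at 12.40 fed and 13.39 fasted, a difference of 0.998 that fell just short of the 2-fold rule, with 0.40 and 1.07 as the lowest and highest of its 3 probes. Nr1i3, the xenobiotic receptor CAR, was at 11.03 and 12.58 (1.55), with 1.64 from its other probe. Ppargc1a, a coactivator of fasting genes, was at 8.08 and 8.79 (0.71). On the lower side were Ppard (9.48 fed, 8.12 fasted) and the immediate-early receptor gene Nr4a1 (9.01 and 7.86). Srebf1, which encodes the SREBP-1 factors of lipogenesis, was at 10.48 in the fed and 7.05 in the fasted pool, 10.8-fold lower, whereas Srebf2 of the sterol arm was at 7.34 and 7.37.

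Fatty acid oxidation was the metabolic branch with the most higher genes. Of 21 measured genes of mitochondrial oxidation 11 were higher and none was lower, with a median of 1.19. Slc22a5, which brings carnitine into the cell, was at 6.94 fed and 8.88 fasted (1.94). Cpt1a, which commits long-chain acyl groups to mitochondria and is held back by malonyl-CoA, was at 11.21 and 13.41, 4.57-fold higher, and its other probe stood at 1.85. Slc25a20, the carrier for acylcarnitines, was at 8.93 and 10.58 (1.66), and Cpt2 on the inner membrane was at 0.71 by its brightest probe and 1.48 by another. Entry of fatty acids thus differed at several steps by 2-fold or more. Within the spiral, the dehydrogenases Acadm (13.17 fed, 14.88 fasted) and Acadl (9.24 and 10.98) differed by 1.70 and 1.74. Hadha of the trifunctional protein was at 9.71 and 10.90 (1.19), and Etfdh, which passes electrons on to the respiratory chain, at 11.97 and 13.40 (1.44).

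Peroxisomes, which shorten very long and dicarboxylic fatty acids, followed with 8 of 24 genes higher, none lower and a median of 0.52. Ehhadh, the bifunctional enzyme of that pathway, was at 11.11 fed and 14.05 fasted, 7.69-fold higher. Acaa1b, a thiolase, was at 13.31 and 14.92 (1.62), Crot, which makes acylcarnitines for export, at 12.50 and 13.95 (1.45), and Pex11a, a factor of peroxisome division, at 12.56 and 13.86 (1.30). Catalase (Cat), which removes the peroxide these enzymes make, was at -0.23 by its brightest probe and 0.32 by another.

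The Cyp4a enzymes hydroxylate the far end of fatty acids and supply dicarboxylic acids to peroxisomes. Cyp4a32 was at 8.98 fed and 14.03 fasted, 33.1-fold higher and the largest positive difference of all measured genes. Cyp4a14 was at 11.69 and 16.24 (4.55), Cyp4a10 at 11.44 and 15.94 (4.50) and Cyp4a31 at 11.67 and 15.92 (4.25). Other probes of Cyp4a10 reached 5.50 and of Cyp4a31 5.42. These genes are near-identical in part, so a probe may read more than 1 of them. The male-linked pair Cyp4a12a and Cyp4a12b, printed with probes of their own, differed by 0.21 and 0.31, and Cyp4f14, which hydroxylates leukotrienes and vitamin tails, was lower (13.03 fed, 11.38 fasted). In all, 4 of the 9 measured genes were higher and 1 was lower.

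Acyl-CoA thioesterases split acyl-CoA into free fatty acid and coenzyme A. Of 10 measured, 5 were higher and none lower, with a median of 1.02. Acot1 in the cytosol was at 10.03 fed and 13.94 fasted, and the peroxisomal Acot3 was at 7.29 and 10.69. Acot5 was at 6.64 and 9.75 (3.10), Acot4 at 7.53 and 9.30 (1.77) and Acot12 at 10.61 and 11.73 (1.12). Acot2, the mitochondrial form, was well above background on the fasted array only and was at least 2.74-fold higher there. Without the band genes Acot1 and Acot3 the count was 3 of 8. Vnn1, a pantetheinase that recycles part of coenzyme A, was at 7.75 and 10.98, 9.37-fold higher, and Pank1, which starts coenzyme A synthesis, at 9.09 and 10.19 (1.09), whereas Nudt7, which breaks coenzyme A down in peroxisomes, was at 14.65 and 12.82 (-1.84).

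Ketone body genes differed less. Of 15 in the list, 3 were higher and 1 was lower, with a median of 0.37. Acat1, the mitochondrial thiolase that forms acetoacetyl-CoA, was at 11.70 fed and 12.74 fasted (1.04), and Bdh1, which reduces acetoacetate, at 13.26 and 13.90 (0.65), with 1.19 from another of its probes. Pdk4, a kinase that shuts pyruvate dehydrogenase, was at 8.16 and 9.23 (1.06). The lower gene was Slc16a6, a monocarboxylate transporter linked to ketone export (9.87 fed, 8.59 fasted). Fatty acid uptake was mixed, with 4 of 21 genes higher and 2 lower. The acyl-CoA ligase genes Slc27a2 (14.95 fed, 16.10 fasted) and Acsl1 (14.35 and 15.47) were higher, and Fabp5, a fatty acid binding protein, was lower by a wider margin (13.38 and 10.58, a difference of -2.80).

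Lipid droplets store triglyceride behind a coat of perilipins. Of 18 measured genes of this list 8 were higher and none was lower, with a median of 0.77. Plin4 was at 7.34 fed and 10.01 fasted, 6.38-fold higher. Cidec, which fuses droplets, was at 6.88 and 9.37 (2.48), and G0s2, an inhibitor of the lipase ATGL, at 10.34 and 12.62 (2.28). The lipase gene itself, Pnpla2, was at 9.91 and 11.11 (1.19), so a lipase and its inhibitor were both higher. Plin5, which ties droplets to mitochondria, was at 11.22 and 12.78 (1.56), and Plin2 at 13.30 and 14.77 (1.47). Plin1, the coat protein of adipocytes, was not measured. In triglyceride assembly 3 of 13 genes were higher and none lower: the lipins Lpin1 (8.60 and 10.70) and Lpin2 (9.11 and 10.75) and the acyltransferase Gpat3 (8.55 and 10.30) were the higher ones. Gpam, the mitochondrial acyltransferase of the first step, was at 8.07 and 7.12 (-0.96), and Dgat1 and Dgat2 of the last at 0.74 and -0.15.

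Secreted signals moved in both directions, with 4 of 19 hepatokine genes higher and 3 lower. Angptl4, an inhibitor of lipoprotein lipase, was at 11.86 fed and 14.47 fasted, 6.12-fold higher. Angptl8, its insulin-induced relative, was at 13.90 and 10.57, 10.1-fold lower. Fgf21, a fasting hormone, was at 6.96 and 9.02 (2.06), and Igfbp1, a binding protein for IGF1 under insulin control, at 12.08 and 14.11 (2.02). Inhba, an activin subunit, was at 9.61 and 7.68 (-1.94). Among 22 apolipoprotein and assembly genes 3 were higher. These were Apoa4 (11.09 fed, 12.78 fasted), the triglyceride-lowering Apoa5 (10.31 and 11.68) and Lcat, which esterifies cholesterol in HDL (11.03 and 12.13). Apob and Mttp, which build the lipoprotein particle, were at 0.14 and 0.51.

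**Figure D3:**
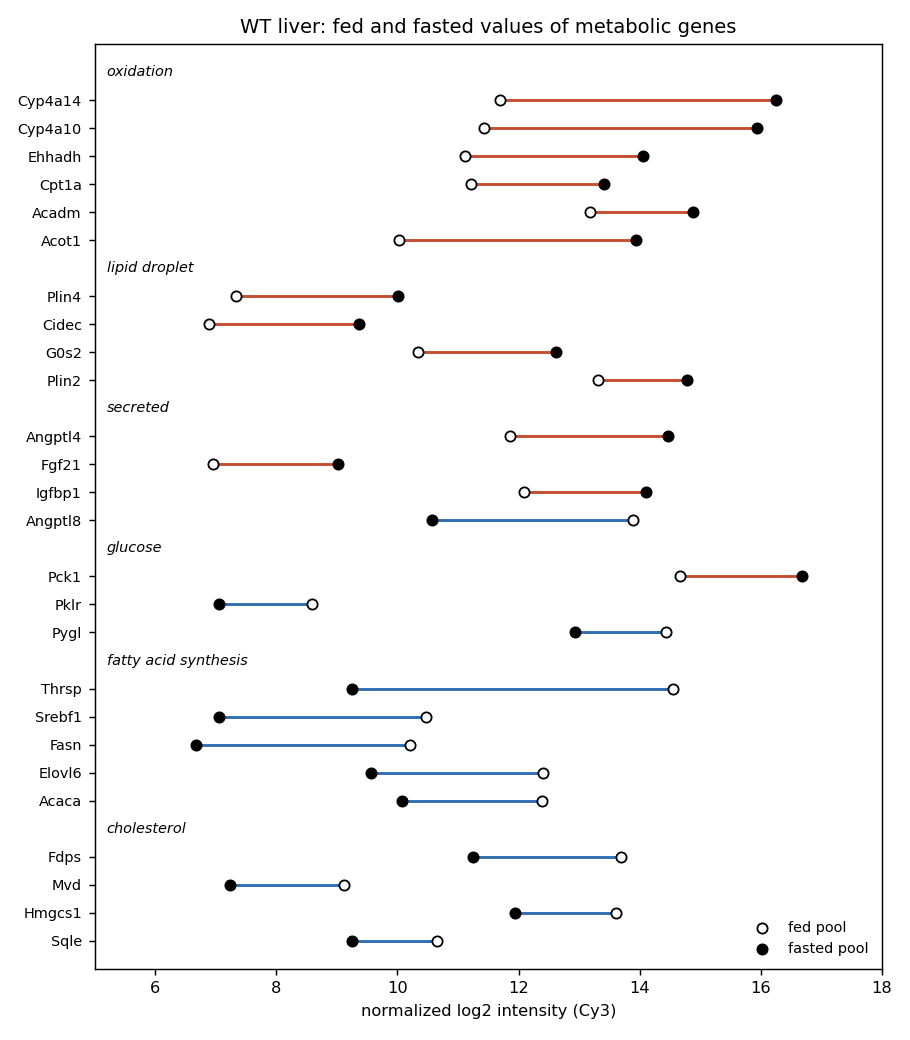
Normalized log2 Cy3 intensity of 26 named genes in the fed (open) and fasted (filled) WT pool, 1 pool each, grouped by role. Lines are red where the fasted pool was higher and blue where it was lower; oxidation and droplet genes run to the right, and fatty acid and cholesterol synthesis genes to the left. Intensities of different probes cannot be compared with each other.

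Pck1, the gluconeogenic PEP carboxykinase, was at 14.66 fed and 16.67 fasted, 4.04-fold higher, and Got1, an aminotransferase that feeds the pathway, at 13.10 and 14.67 (1.57). The other steps were closer: Fbp1 was at 15.91 and 16.55 (0.64) and G6pc, the last step, at 14.29 and 14.17 (-0.12). Of 20 gluconeogenesis genes and coactivators 2 were higher and 1 was lower, with a median of 0.50. Of 24 genes of glycolysis, glycogen and carbohydrate sensing, 7 were lower and 1 was higher, with a median of -0.40. Pklr, the liver pyruvate kinase, was at 8.59 fed and 7.06 fasted (-1.53), Khk, which takes up fructose carbon, at 15.52 and 14.11 (-1.42), and Mlxipl, the carbohydrate sensor ChREBP, at 13.12 and 12.03 (-1.09). Pygl, glycogen phosphorylase, was at 14.44 and 12.94, 2.83-fold lower, so the list's lower genes include breakdown as well as use. The higher gene was Txnip, which dampens glucose uptake, at 8.79 and 10.52. With no normalization between arrays the glycolysis list had 2 lower genes and a median of 0.11, or -0.34 relative to all genes under that setting, and the gluconeogenesis list had 13 higher genes and a median of 1.08, or 0.63 relative to all genes.

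Fatty acid synthesis held the lowest list median of all, -2.08, with 15 of 19 measured genes lower and none higher. Thrsp, a cofactor of lipogenesis known as Spot14, was at 14.56 in the fed and 9.25 in the fasted pool, 39.5-fold lower and the largest negative difference of all measured genes. Its relative Mid1ip1 was at 12.31 and 9.05 (-3.26). The protein of Mid1ip1 promotes the activity of acetyl-CoA carboxylase, whose genes Acaca (12.39 fed, 10.08 fasted) and Acacb (12.52 and 10.14) were lower by 2.31 and 2.39. Fasn, the fatty acid synthase, was at 10.21 and 6.67, 11.6-fold lower, and Elovl6, which extends its product, at 12.41 and 9.56 (-2.84). The supply of carbon and NADPH was lower as well, with Acly at -2.27, Me1 at -1.88 and G6pdx at -2.08. Scd1, the main desaturase of the liver, was at -1.67, whereas Fads1 and Fads2 of polyunsaturated fatty acid synthesis were at 0.03 and 0.76. Taldo1, Slc25a1, Nr1h3 and Slc13a5 were the members under 2-fold, between -0.62 and 0.03. Mfsd2a, a carrier of lysophospholipids listed with the desaturases, stood apart at 8.76 and 12.36, 12.2-fold higher.

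Cholesterol synthesis was lower to a smaller degree, at 10 of 24 genes, with none higher and a median of -0.89. Fdps, which makes farnesyl diphosphate, was at 13.69 fed and 11.24 fasted, 5.44-fold lower. Mvd of the mevalonate steps was at 9.12 and 7.24 (-1.88), Hmgcs1, the cytosolic synthase at the pathway's start, at 13.61 and 11.94 (-1.67), and Sqle, which opens the sterol branch, at 10.66 and 9.24 (-1.41). Fdft1 (0.23) and Hsd17b7 (0.38) were the members above 0. In the control of the pathway, Insig1, which holds SREBP in the endoplasmic reticulum, was at 10.33 and 7.79, 5.81-fold lower. Its relative Insig2 was at 12.23 and 12.94 (0.71), with 0.21 from its other probe. The KO pools differed here: 6 of the 24 cholesterol genes were higher in fasted KO liver and none was lower, with a median of 0.31, against shares of 2.59% higher and 2.1% lower over all genes measured in KO. Hmgcs1 was at 0.99 and Fdps at -0.09 between the KO pools. The difference between genotypes was not tested.

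A sterol regulatory element is the site at which SREBP factors bind. Its letters TCACNCCAC, on either strand, were looked for in the 300 bases around gene starts (250 before and 50 after) in RefSeq, build GRCm38.p6. They stood in the promoter of 1 of 17 cholesterol genes with a sequence, against 1.51% of measured genes and 1.24% of all 32851 promoters. In the fatty acid synthesis list 0 of 18 genes held them, and in the sterol control list 0 of 11. The share was 3.57% of the 168 lower and 2.71% of the 221 higher genes with a sequence. The cholesterol gene was Hmgcs1, and its match is shown in capitals with 20 flanking bases on each side (chr13:119690194-119690242, plus strand). Genes without a match can carry variants of the element, which this search does not read.

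Hmgcs1: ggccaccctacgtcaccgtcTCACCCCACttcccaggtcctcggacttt

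Amino acid breakdown, which frees carbon for glucose and nitrogen for urea, had 5 of 33 genes higher, none lower and a median of 0.45. Oat, ornithine aminotransferase, was at 12.09 fed and 13.86 fasted (1.77), Asl of the urea cycle at 12.69 and 13.94 (1.25) and Aass of lysine breakdown at 13.41 and 14.51 (1.10). Cps1, which starts the urea cycle, was at 12.29 and 13.16 (0.87). Asns, which makes asparagine and is a target of ATF4, was at 8.31 and 7.08 (-1.24) and the one called gene among 14 of the ATF4 response. Of 19 glucocorticoid targets 5 were higher and 2 lower. Zbtb16 was at 8.57 and 10.33 (1.76), Fkbp5 at 9.34 and 10.91 (1.57) and the clock gene Per1 at 9.47 and 10.99 (1.51), but Tsc22d3, a widely used glucocorticoid target, was at 0.10. Of 15 measured clock and clock output genes 3 were higher, Per1, Usp2 (7.98 and 9.29) and Tef (11.92 and 13.02), and 1 was lower, the repressor Bhlhe40 (10.09 and 8.48). Dbp was at 11.33 and 12.33, just under 2-fold, Arntl of the core clock at -0.48 and Nr1d1 at 0.08.

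**Figure D4:**
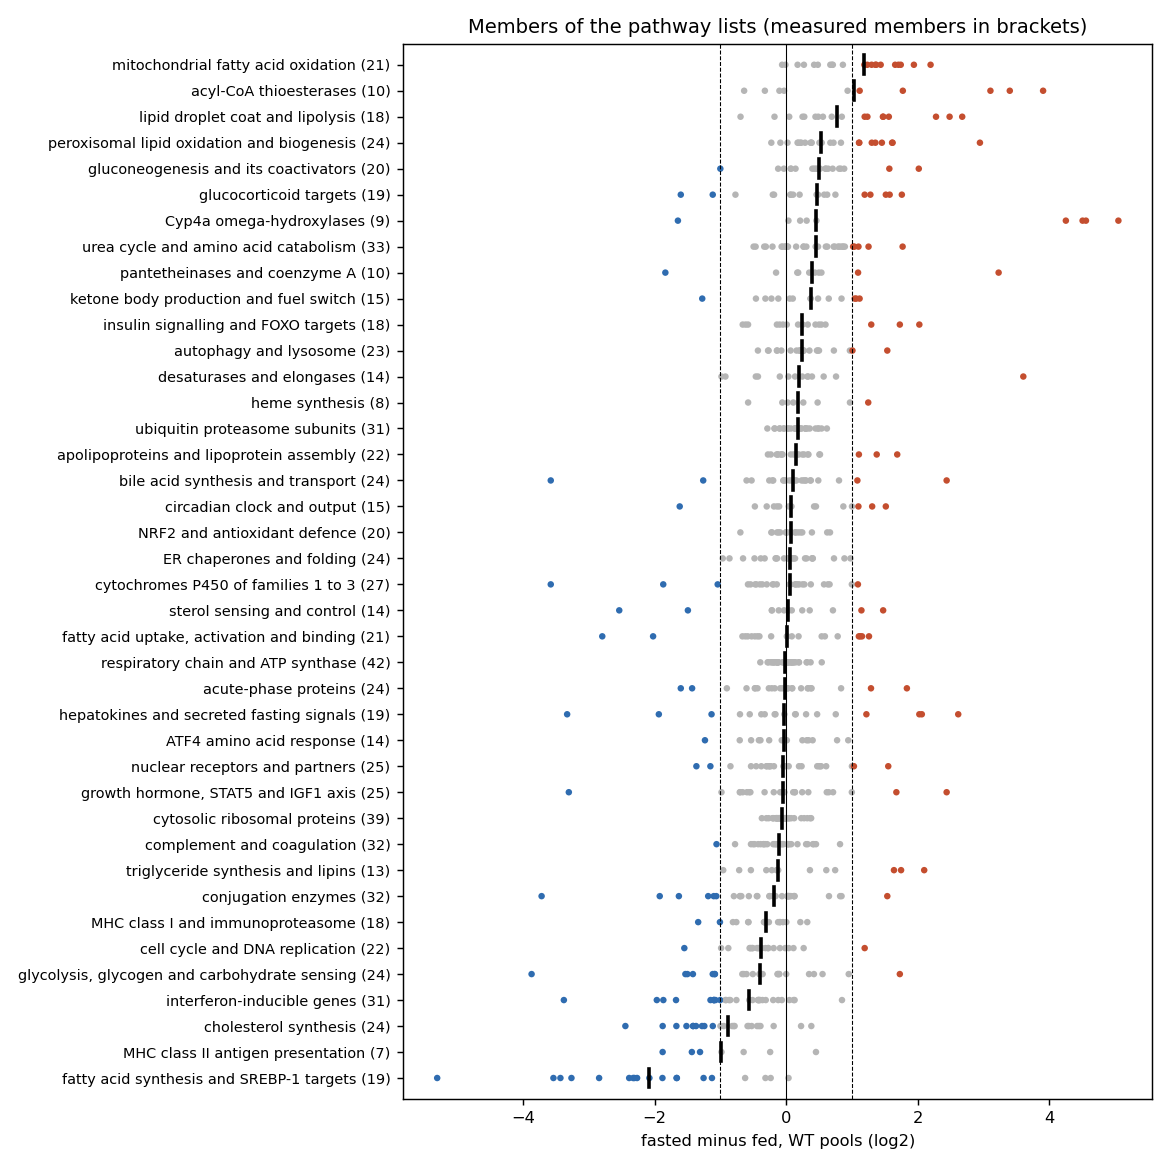
Fasted minus fed log2 difference between the WT pools for each measured member of the 40 pathway lists, ordered by list median (black bar), with the number of measured members in brackets. Points at least 2-fold higher are red and at least 2-fold lower blue; mitochondrial oxidation has the highest median (1.19) and fatty acid synthesis the lowest (-2.08).

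Interferon-inducible genes, which are switched on by interferons through STAT and IRF factors, were lower in the fasted pool in 10 of 31 measured cases and higher in none, with a median of -0.56. Tgtp2, an interferon-inducible GTPase, was at 13.28 fed and 9.90 fasted, 10.4-fold lower, and its probe may also read its near-identical neighbour Tgtp1. Igtp, of the same class, was at 12.34 and 10.47 (-1.87), and Cxcl9, a chemokine induced by interferon gamma, at 9.48 and 7.52 (-1.97). Targets of type I interferon were among the lower genes too, with Bst2, or tetherin, at 13.74 and 12.07 (-1.67) and Isg15, a ubiquitin-like protein, at 11.61 and 10.46 (-1.15). The list was not lower throughout: Ifit2 was at 0.05, Ifit3 at -0.07 and Rsad2 at 0.85.

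MHC class II genes stood with them, at 3 of 7 measured genes lower and a median of -0.98. H2-Eb1 was at 11.92 fed and 10.04 fasted, 3.68-fold lower, H2-Ab1 at 12.42 and 10.99 (-1.43) and the invariant chain Cd74 at 11.83 and 10.52 (-1.31). The immunoproteasome subunits Psmb9 (11.42 and 10.08) and Psmb10 (13.25 and 12.25) were lower as well, but the class I genes H2-K1 and H2-D1 were at -0.33 and 0.32. The median of the class I list was -0.31, and 0.21 with no normalization between arrays. In KO liver the interferon list had 1 of 28 genes lower and a median of 0.12, and the class II list had 2 of 7 higher and a median of 0.69. In Tgtp2, the interferon gene furthest from 0, the fed WT pool was at 13.28. Its fasted WT, fed KO and fasted KO pools were at 9.90, 9.32 and 10.21. Gbp3 was at 8.78 in fed WT and, in that order, at 7.67, 7.43 and 7.74 in the others. Isg15 differed, at 11.61 in fed WT and 10.46, 10.82 and 10.08. WT was read in Cy3 and KO in Cy5 on both arrays, so genotype and dye cannot be told apart in these levels. The difference between genotypes was not tested.

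Fewer cells of a type and less RNA per cell cannot be told apart in whole liver RNA. Of the cell types that carry class II, 13 Kupffer cell and macrophage markers were measured, with 1 lower, a median of 0.10 and a summed intensity that differed by -0.06. Marco, a scavenger receptor of Kupffer cells, was that gene (10.46 fed, 9.44 fasted). Mpeg1 was at 11.08 and 10.26 (-0.82), with -1.25 from its other probe, whereas Cd14 was at 0.80 and 8 of the 13 markers were above 0. In KO liver the same list had a median of 0.55 with none 2-fold apart, and the difference between genotypes was not tested. Of 14 lymphocyte markers 7 were measured, with a median of 0.01, none 2-fold apart and differences from -0.58 (Cd3e) to 0.50 (Cd4). Their summed intensity differed by 0.33, but a sum is weighted towards bright probes such as that of Cd4 (11.67 fed, 12.17 fasted). The processing draws differences of dim probes towards 0, and some of these markers were dim, such as Ptprc (6.62 fed, 6.86 fasted). The B cell markers Ms4a1 and Cd79a were not measured. The 4 measured of 9 neutrophil markers had a median of -0.22, none 2-fold apart. Their part in the immune result was not tested. Stellate and matrix markers had 2 of 11 genes lower, the collagens Col3a1 (9.46 and 7.78) and Col1a1 (8.66 and 7.35), and endothelial markers 1 of 12 higher, Lyve1 (7.35 and 8.70).

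**Figure D5:**
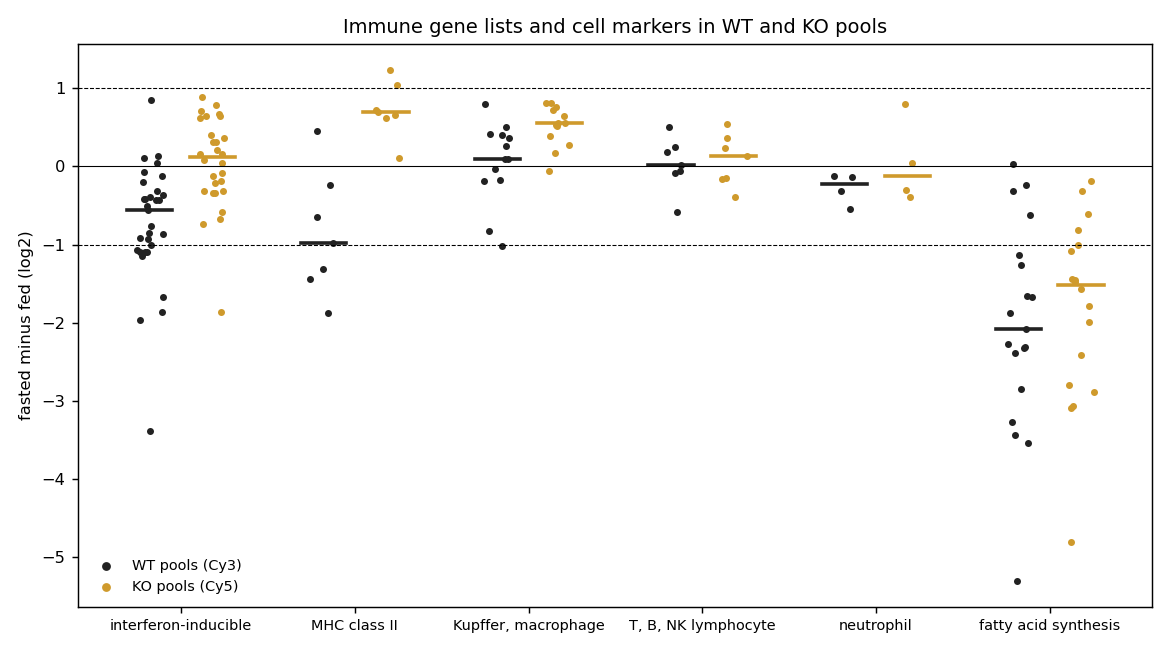
Fasted minus fed log2 difference of each measured member in WT (black) and KO pools (ochre) for the interferon and MHC class II lists, 3 marker lists and, for scale, fatty acid synthesis; bars are medians and dashed lines mark 2-fold. The WT medians of the interferon (-0.56) and class II lists (-0.98) lie below 0 and those of KO (0.12 and 0.69) above it, while fatty acid synthesis is lower in both.

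Many promoters of the interferon list share a sequence feature for which genes of this kind are known. Its share in the list therefore says nothing of the fasting difference. The letters GAAANNGAA, the core of the interferon-stimulated response element, were found on either strand in 17 of 26 promoters of the list, or 65.4%, against 8.83% of 9158 measured genes with a promoter sequence and 8.56% of all promoters. Of the 168 lower genes with a sequence 10.1% held it, close to the share of measured genes. The matches of 5 lower genes are shown as examples, with the element in capitals and 20 bases on each side, written along the gene's strand. The positions in GRCm38.p6 are chr11:49064254-49064302 (minus strand) for Tgtp2, chr11:58199502-58199550 (plus) for Igtp, chr8:71537568-71537616 (minus) for Bst2, chr4:156200862-156200910 (minus) for Isg15 and chr3:142559980-142560028 (plus) for Gbp3, whose match lies on the other strand.

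Tgtp2: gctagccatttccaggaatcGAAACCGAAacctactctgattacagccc
Igtp: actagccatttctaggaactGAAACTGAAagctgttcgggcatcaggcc
Bst2: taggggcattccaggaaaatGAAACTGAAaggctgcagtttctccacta
Isg15: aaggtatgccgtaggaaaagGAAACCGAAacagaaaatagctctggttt
Gbp3: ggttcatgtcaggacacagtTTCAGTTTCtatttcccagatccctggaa

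Bst2, Isg15 and Gbp3 carry these letters in overlapping copies, of which 1 each is shown. A match is a description of letters and not a bound site. The E-box CACGTG, bound by clock and USF factors, stood in 16.3% of the 221 higher genes with a sequence and in 7.74% of the lower ones, against 11.7% of measured genes. The cAMP response element TGACGTCA stood in 2.26% and 1.19%, against 3.53%.

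Of 32 conjugation enzymes 6 were lower and 1 was higher. Gsta1, a glutathione transferase, was at 10.86 fed and 7.14 fasted, 13.2-fold lower, Gsta2 at 11.76 and 10.57, and Gstm6, Gstm2 and Gstm1 at -1.92, -1.63 and -1.10. The higher gene was Gstt2 (10.51 and 12.05). Cyp2c70, which in mice turns chenodeoxycholic acid into muricholic acids, was at 14.75 and 11.17, 11.9-fold lower, while Cyp8b1, which directs bile acids to cholic acid, was at 8.99 and 11.43, 5.42-fold higher. Cyp7a1, the first enzyme of bile acid synthesis, was at 9.28 and 9.54 (0.26), and Abcb11, the bile salt export pump, at 13.81 and 12.55 (-1.26). Hsd3b5, a male-typical steroid enzyme under growth hormone, was at 13.60 and 10.30 (-3.30), whereas Igf1 was at -0.09 and Socs2, a growth hormone target, at 0.71. Igfbp2 was at 12.97 and 14.65 (1.67). Aqp8, a water channel, was at 14.17 and 11.15 (-3.01), with -1.70 from its other probe, and Car3, a carbonic anhydrase, at 15.56 and 13.18 (-2.39).

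None of 42 respiratory chain, 39 ribosomal protein, 31 proteasome, 24 endoplasmic reticulum chaperone or 20 NRF2 and antioxidant genes was 2-fold apart, and their medians lay between -0.06 and 0.18. Of 32 complement and coagulation genes 1 was lower (C9, 11.51 fed and 10.45 fasted). Of 24 acute-phase genes 2 were lower, Lcn2 (12.72 and 11.12) and Orm3 (8.90 and 7.47), and 2 were higher, Serpina3n (10.72 and 12.55) and the receptor gene Il6ra (10.92 and 12.21). Alas1, which limits heme synthesis, was at 14.54 and 15.78 (1.25). In autophagy, Bnip3 of mitophagy was at 12.55 and 14.09 (1.54) and Map1lc3a at 9.43 and 10.43 (1.01). Of 22 measured cell cycle genes 18 were below 0, against 48.7% of all measured genes, and the list median was -0.39, with Rrm2, a subunit of ribonucleotide reductase, at 8.79 and 7.25 (-1.55) and the cell cycle inhibitor Cdkn1a higher at 7.20 and 8.39.

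Genes seen on 1 array only have a bound in place of a difference. The fasted array had more gene spots well above background in Cy3, 45.9% against 39.9%, and normalization does not change that flag. On the fasted array 1071 genes were above background that were not so on the fed array, and 93 the other way. Of the former 5 had a bound of at least 2-fold: Gm8909 (at least 12.5-fold higher), Ctse (at least 3.47-fold), Ppp1r3g, a glycogen-targeting subunit of protein phosphatase (at least 2.90-fold), Nipal1 (at least 2.84-fold) and Acot2. Of the latter 2 did, Gm4841 (at least 7.90-fold lower) and Bhlha15, a transcription factor of secretory cells (at least 2.62-fold lower). A bound sets the bright signal against the dim probe's own signal in the other pool or that of the dimmest probe still well above background there, whichever is higher.

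WT and KO pools of a feeding state were read on the same array, so whatever sets the 2 arrays apart is shared by the fasting differences of both genotypes. Of the 266 higher genes measured in KO, 192 were at least 2-fold higher there too, 63 had the same sign under 2-fold and 11 the opposite sign; outside the band of KO over WT ratios 124 of 196 were at least 2-fold higher in KO. Of 218 lower genes these numbers were 131, 67 and 20. Over all 11782 genes measured in KO, 2.59% were at least 2-fold higher and 2.1% at least 2-fold lower. Agreement in sign over all genes was not counted. Fgf21, Lpin1, G0s2 and Cidec are among the genes with a difference of at least 2-fold in WT and under 2-fold in KO, where they were at 0.22, 0.07, 0.27 and 0.59. Of these, Fgf21 (6.43 fed, 6.65 fasted) and Cidec (6.21 and 6.80) were dim in KO, and the processing draws differences of dim genes towards 0. Creb3l3, the gene targeted in the KO mice, still gave a signal there, at 13.12 fed and 12.95 fasted. The arrays hold 1 pool for each of these values, so whether a gene's difference varies with genotype was not tested.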

How the data were processed

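The deposited files are output of Agilent Feature Extraction 10.10.1.1, per the file headers, 1 per array. Median spot and local background intensity per channel were used as deposited, unnormalized; flags for background and outliers came with them. The submitters' table of KO over WT ratios holds no fasting contrast and was not used. Background was corrected with normexp (offset 50), dyes by loess within arrays with control spots at weight 0, and channels between arrays by Aquantile (limma 3.58.1, R 4.3.3). Outlier spots (216 fed, 197 fasted) and controls were left out, and spots of a probe averaged. The offset draws differences of dim genes towards 0. The script was tested on simulated data.

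Accessions named 26756 of 55681 probes through the GRCm38.p6 RefSeq table; the array grid names mm9, so that table served for names, chromosomes and gene order, and the positions printed are those of RefSeq promoter sequences in GRCm38.p6. The brightest probe stood for a gene. A gene was measured with at least 50% of its spots well above background in Cy3 on both arrays. The number of arrays limits the precision. Members and gene lists were chosen with earlier results of these data known. Named are the 20 highest and lowest genes, up to 5 bounds per direction, Creb3l3, the first 4 members (anchors), the 6 furthest from 0 and those 2-fold against the median of each pathway list, and 3 per marker list; other names were chosen after their values were seen. Besides this processing 11 other settings were tried, with 1 more added after seeing the data. Some genes are not reported here.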

Additional observations from a re-analysis of the deposited data

Results flagged for a closer look

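Among the genes at least 2-fold apart in WT, 4 were at least 2-fold apart in the opposite direction between the KO pools, which is what marked them for a closer look; the difference was not tested, since each value is 1 pool. Apoa4, an apolipoprotein of triglyceride-rich particles, was 1.69 higher in fasted WT and at -4.30 between the KO pools, where it was at 12.77 fed and 8.47 fasted. Fabp2, a fatty acid binding protein, was at 1.26 in WT and -2.07 in KO. Sqle was at -1.41 in WT and 1.68 in KO, and Idi1, the isomerase of the mevalonate pathway, at -1.42 and 1.04. Each has 1 measured probe.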

How the results depend on the processing

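No paired analysis was possible because each group is 1 pool, and no replicate could be left out. Against 269 higher and 220 lower genes, there were 1078 and 71 with no normalization between arrays, 425 and 456 with the scanner software's processed signal, 701 and 648 at 1.5-fold, and 68 and 65 at 3-fold. The other planned settings gave 229 to 355 on the higher and 166 to 328 on the lower side, with both lowest counts from the brighter genes alone, and leaving out the band of KO over WT ratios, chosen after seeing the data, 199 and 216. Of the list medians at least 0.25 from 0, those of glycolysis (0.11) and MHC class I (0.21) turned sign, both with no normalization between arrays. Of 152 named genes called 2-fold, none turned sign under any setting that gave it a value, and 124 stayed 2-fold with no normalization between arrays. Settings that only changed which genes were kept left each value as it was and could not turn a sign. Centring on the median moved each value by 0.01 only. Of 104 called genes read by more than 1 measured probe, another probe stood under 0.5 in the gene's direction for 36 and of opposite sign for 15. The named genes with another probe under 2-fold include Alas1 (0.99), Acsm3 (0.96), Nsdhl (-0.55), Isg15 (-0.63), Iigp1 (-0.64), Gm10639 (-0.69) and Gstm1 (-0.85). Genes under the rule with another probe past it include Dbp (1.08) and, as given above, Ppara, Cpt2 and Bdh1. For Igf1 another probe was above 0 (0.56). A dim gene can be 2-fold apart and go uncalled, since the offset pulls it to 0.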

Other observations

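Genes that stand in no pathway list made up 327 of the 489 called genes, and the following were chosen after their values were seen. Retsat, a retinol saturase of the endoplasmic reticulum, was at 11.92 fed and 14.81 fasted, 7.42-fold higher, and Eif4ebp3, a translation repressor, at 9.67 and 12.43. Slc25a47, a mitochondrial carrier of liver, was at 12.74 and 14.44 (1.71) and at 0.21 between the KO pools. Mat1a, which makes S-adenosylmethionine, was at 13.62 and 15.30, and St3gal5, which makes the ganglioside GM3, at 11.80 and 13.87. Por, the reductase that serves all microsomal P450 enzymes, was at 11.65 and 13.28 (1.62), and at 0.76 in KO. On the lower side, Leap2, a liver peptide that opposes ghrelin, was at 12.19 and 10.57 (-1.61), Tubb2a at 13.36 and 11.53 (-1.82) and Ihh, a hedgehog ligand, at 8.40 and 6.50 (-1.91).

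Called genes also stood side by side on chromosomes, by gene order in RefSeq. Over all measured genes 2.35% were higher and 1.92% lower. Runs of at least 2 neighbouring measured genes past 2-fold in 1 direction numbered 20 on the higher side (44 genes) and 7 on the lower (19 genes). The longest were families: Acot1, Acot4, Acot3 and Acot5 on chromosome 12 and Cyp4a14, Cyp4a10, Cyp4a31 and Cyp4a32 on chromosome 4 among higher genes, and Gstm6, Gstm3, Gstm2 and Gstm1 and Hsd3b5, Hsd3b2, Hsd3b3 and Hsd3b6 on chromosome 3 and Gsta1, Gm10639 and Gsta2 on chromosome 9 among lower genes. Members of such families share sequence, so the runs are no independent support for each member. How many runs the called shares alone would give was not computed. Some higher runs hold genes of the band of KO over WT ratios, namely Acot1, Acot3, Asic5, Rdh9 and Zcchc9. Pairs were also seen, such as Plin4 with Plin5 on chromosome 17, Apoa4 with Apoa5 on chromosome 9 and, on the lower side, Fdps with Pklr on chromosome 3 and Angptl8 with Dock6, in whose locus it lies, on chromosome 9.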
